A study of Mus musculus with 5 samples.

Results

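The retinoblastoma pocket proteins, the D-type and E-type cyclins and the inhibitor p27 form the switch that moves a cell from G1 into DNA synthesis. The 9 genes described here are Rb1, Rbl1 and Rbl2 (pocket proteins), Ccnd1, Ccnd2 and Ccnd3 (cyclins D), Ccne1 and Ccne2 (cyclins E) and Cdkn1b (p27). They were taken by name, and each was read from the probe set that carries its symbol alone and has the highest mean signal over the arrays. All 9 were found, out of 19938 genes named in this way. RNA came from mouse embryonic stem (ES) cells, the pluripotent cells of the early embryo, in unsynchronised culture. The wild-type group had 3 arrays and the Dicer-deficient group had 2, each from a separate culture according to the design text. Both groups grew without feeder cells in equal parts of a serum medium with LIF and of N2B27 with 2i, the latter being a serum-free medium with kinase inhibitors. The labels name no parent line and no Dicer allele, so the loss of Dicer and anything else that sets the 2 kinds of cell apart cannot be told apart.

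In most cells, mitogens induce cyclin D, which activates Cdk4 or Cdk6 to phosphorylate the pocket proteins. Phosphorylation releases E2F factors, which induce cyclin E, and cyclin E with Cdk2 completes the phosphorylation, while p27 holds these kinases back. Mouse ES cells are known for a short G1, for abundant cyclin E and for pocket proteins kept largely phosphorylated. Dicer cuts microRNA precursors, and the ES cell microRNAs of the miR-290 and miR-302 clusters are known to promote passage from G1 to S phase, with Rbl2 among their reported targets.

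RefSeq's annotation gave 11 mature 3p microRNAs of these clusters, and the 5 that share the seed AAGUGCU are printed because Rbl2 is a reported target of this family. A family member missing from that annotation would not be shown. The sequences are RefSeq's (GRCm38.p6), with the seed, bases 2 to 8, in capitals. The first 3 lie on chromosome 7 and the last 2 on chromosome 3.
mmu-miR-291a-3p: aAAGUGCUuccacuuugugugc
mmu-miR-294-3p: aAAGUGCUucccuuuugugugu
mmu-miR-295-3p: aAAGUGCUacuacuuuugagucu
mmu-miR-302b-3p: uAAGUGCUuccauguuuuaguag
mmu-miR-302d-3p: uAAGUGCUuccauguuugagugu
No search for sites of these seeds in the members' transcripts was made here.

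The upstream sequences of Rbl1 and Rbl2 are printed because these 2 pocket protein transcripts rose together, as described below. RefSeq promoters (250 bases before the start of the gene and 50 after it) were matched by symbol for 5 members, Rbl1, Rbl2, Ccnd3 (with 2 starts), Ccne1 and Cdkn1b. Rb1, Ccnd1, Ccnd2 and Ccne2 were not matched. Both strands of each 300-base window were searched for the E2F words TTTCCCGC, TTTGGCGC, TTTCGCGC and TTTGCCGC, and for TTTGAA, the word of the cell cycle homology region. The 250 bases upstream of Rbl1 (chr2:157204535-157204784, minus strand) and of Rbl2 (chr8:91069807-91070056, plus strand) are shown 5′ to 3′, with each match in capitals.
Rbl1: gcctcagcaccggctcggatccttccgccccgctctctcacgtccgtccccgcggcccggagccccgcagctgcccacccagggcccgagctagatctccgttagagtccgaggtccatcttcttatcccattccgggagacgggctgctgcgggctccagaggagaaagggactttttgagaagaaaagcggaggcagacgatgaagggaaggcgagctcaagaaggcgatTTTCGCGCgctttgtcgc
Rbl2: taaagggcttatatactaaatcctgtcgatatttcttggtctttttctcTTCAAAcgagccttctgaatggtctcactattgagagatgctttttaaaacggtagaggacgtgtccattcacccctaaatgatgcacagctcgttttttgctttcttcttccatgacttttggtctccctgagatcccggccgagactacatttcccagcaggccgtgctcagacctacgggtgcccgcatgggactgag
The Rbl1 window held 1 E2F word, TTTCGCGC, which began 18 bases upstream of the start. An E2F word occurred in 2.26% of the 32851 RefSeq promoters of this length. The Rbl2 window held TTTGAA on the reverse strand, printed here as its complement and beginning 201 bases upstream, and 17.9% of promoters held that word. The windows of Ccnd3, Ccne1 and Cdkn1b held none of the 5 words. The Ccne1 window was 76% G and C, and the Rbl2 window 50.7%.

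Each array gave a normalized log2 signal for 35556 probe sets. Medians of the arrays ran from 5.39 to 5.45, and their lower quartiles from 4.14 to 4.18. Dicer1 was lower in Dicer-deficient cells, with signals of 8.84, 8.82 and 8.85 against 7.20 and 6.84, which checks the labels as far as its probe set reads the deleted part. The ES cell markers Pou5f1, Nanog, Sox2, Esrrb, Zfp42, Dppa5a, Utf1 and Tdgf1 had median signals of 11.03 to 11.28 on the wild-type arrays and 10.94 to 10.95 on the Dicer-deficient arrays, with Esrrb and Tdgf1 called lower. The median of their log2 changes was 0.05. Pou5f1, Sox2, Zfp42, Dppa5a and Utf1 had changes of 0.027 to 0.255 and Nanog had -0.195, none of them called. The 9 measured markers of feeder fibroblasts had medians of 5.62 to 5.93 and 5.81 to 5.87. Among them Postn and Lum lay below every array's lower quartile, and only Vim, which ES cells also express, was called (higher). The 8 measured markers of differentiated cells had medians of 5.38 to 5.48 and 5.46 to 5.57, with Krt8 and Pax6 called higher. What part these marker differences have in the results was not tested.

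In Dicer-deficient cells the transcripts of both Rb1 relatives, Rbl1 and Rbl2, were higher, together with cyclins D2 and E2, while cyclins E1 and D3 were lower. Rb1, Ccnd1 and Cdkn1b did not pass the test. A gene is said to be called, to rise or to fall, when its adjusted p in limma was under 0.05 over all genes tested. By this rule 4 of the 9 members rose and 2 fell, against 17.1% of all genes called, 8.48% higher and 8.6% lower. For 7 members both Dicer-deficient values lay outside the wild-type range, against 39.9% of all genes. At an unadjusted p under 0.05 in limma, 5 members were higher and 2 lower, against 2719 and 2826 of the 19938 genes. The median log2 change was 0.33 over the members and 0.01 over all genes. The members were chosen with earlier results of these data known, and these comparisons with all genes were not matched for signal. Such comparisons cannot measure an excess among the members. The wild-type means of Rb1 (5.80), Rbl2 (5.66) and Ccne2 (5.98) lay close to the array medians, and nothing used here shows that these signals exceed background, so their differences are given as log2 signal and not as folds of transcript. None of the 6 calls held without each array in turn. Leaving out a Dicer-deficient array leaves a single one, assumed to vary like the wild type, and then limma called 1 member without array 1 and 0 without array 2 (7 and 6 at an unadjusted p under 0.05). Over all genes the calls numbered 973 and 1032, against 3404 with all arrays.

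**Figure D1:**
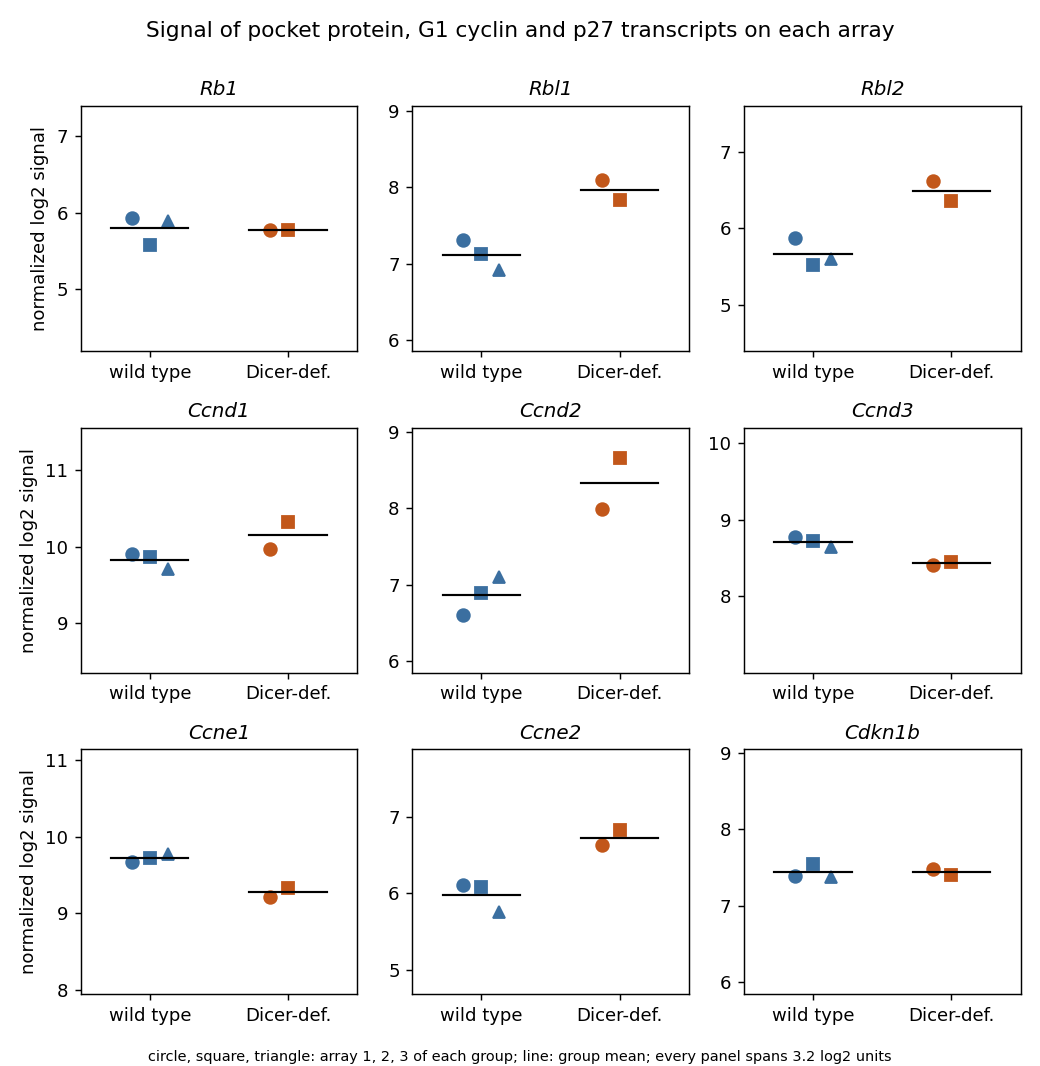
Each panel plots the normalized log2 signal of 1 transcript (vertical axis) on the 3 wild-type and 2 Dicer-deficient arrays, with a line at each group's mean and the same axis length in every panel. For Rbl1, Rbl2, Ccnd2 and Ccne2 both Dicer-deficient points sit clearly above the wild-type points, for Ccnd3 and Ccne1 below them, and for Rb1 and Cdkn1b among them.

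Rb1 encodes the founding pocket protein, a tumour suppressor that binds mainly the activating E2F factors. Its wild-type signals were 5.93, 5.58 and 5.90, and both Dicer-deficient arrays read 5.78. The Dicer-deficient values fell inside the wild-type range. The log2 change was -0.02 (SE 0.117, limma adjusted p = 0.937), with a 95% interval from -0.30 to 0.25. The change turned to 0.04 or 0.025 when wild-type array 1 or array 3 was left out, so no direction can be given.

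Rbl1 encodes p107, a pocket protein that binds repressive E2F factors and is itself an E2F-responsive gene. The signals were 7.31, 7.13 and 6.92 in wild-type cells and 8.10 and 7.83 in Dicer-deficient cells. The gap between the groups was larger than the range within either group. The group means were 7.12 ± 0.195 (SD, n = 3) and 7.97 ± 0.191 (SD, n = 2), so Rbl1 was 1.80-fold higher, with a log2 change of 0.85 (SE 0.133, limma adjusted p = 0.00476). Leaving out Dicer-deficient array 1 gave an adjusted p of 0.112 and a log2 change of 0.71, and leaving out array 2 gave 0.0596 and 0.98.

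Rbl2 encodes p130, the pocket protein best known from resting cells, where it forms the repressive DREAM complex with E2F4 and the MuvB core. Its signals were 5.87, 5.52 and 5.60 in wild-type cells and 6.62 and 6.36 in Dicer-deficient cells. The groups did not overlap. The log2 signal was 0.83 higher (SE 0.128, limma adjusted p = 0.00445). The wild-type mean was 5.66 ± 0.183 (SD, n = 3). The call was lost when Dicer-deficient array 1 (adjusted p = 0.104) or array 2 (0.0571) was removed.

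Cyclin D1, the D-type cyclin most often tied to growth factor signalling, did not pass the test. Ccnd1 had signals of 9.90, 9.86 and 9.71 in wild-type cells and 9.97 and 10.33 in Dicer-deficient cells. The groups did not overlap, but the lower Dicer-deficient value was close to the highest wild-type one. The log2 change of 0.33 (SE 0.121, limma adjusted p = 0.121; 95% interval 1.03-fold to 1.53-fold) was 0.15 without Dicer-deficient array 2 and 0.51 without array 1, so it moved by over 1.5 times with either array.

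Ccnd2, the cyclin D best known from haematopoietic, gonadal and neural cells, changed most among the members. It read 6.61, 6.89 and 7.10 in wild-type cells and 7.99 and 8.66 in Dicer-deficient cells. The lower Dicer-deficient value was above every wild-type value, though these 2 arrays also differed from each other more than for any other member. The means of 6.87 ± 0.246 (SD, n = 3) and 8.33 ± 0.474 (SD, n = 2) were 2.75-fold apart (log2 change 1.46, SE 0.208, limma adjusted p = 0.00313). The 95% interval ran from 1.96-fold to 3.85-fold. The call was kept when each wild-type array or Dicer-deficient array 1 was left out, and was lost without Dicer-deficient array 2 (adjusted p = 0.0655, log2 change 1.12).

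Ccnd3, the third D-type cyclin, moved the other way by a small amount. Its signals were 8.78, 8.72 and 8.65 against 8.41 and 8.45. The groups did not overlap, and the spread within each was small. Ccnd3 was 1.22-fold lower (log2 change -0.29, SE 0.0794, limma adjusted p = 0.0459), close to the threshold. The adjusted p was 0.066 when the arrays were centred on their medians, it was 0.114 and 0.139 when the first or second wild-type array was left out, and 0.206 and 0.155 when the first or second Dicer-deficient array was.

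The E-type cyclins, which activate Cdk2 at the start of DNA synthesis, moved in opposite directions. Ccne1 had signals of 9.67, 9.72 and 9.77 in wild-type cells and 9.22 and 9.33 in Dicer-deficient cells. All wild-type values were higher than both Dicer-deficient values. Ccne1 was 1.36-fold lower (log2 change -0.45, SE 0.0807, limma adjusted p = 0.00858). Ccne2 had signals of 6.11, 6.08 and 5.75 in wild-type cells and 6.63 and 6.82 in Dicer-deficient cells. Here all Dicer-deficient values were the higher ones. Ccne2 rose by 0.75 on the log2 scale (SE 0.127, limma adjusted p = 0.00663). Without Dicer-deficient array 1 and array 2 in turn, the adjusted p was 0.0911 and 0.0563 for Ccne1 and 0.0848 and 0.13 for Ccne2.

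Cdkn1b encodes p27, the inhibitor of Cdk2 complexes that E3 ligases with Skp2 mark for destruction. Its signals of 7.39, 7.55 and 7.38 in wild-type cells and 7.48 and 7.40 in Dicer-deficient cells overlapped. Both means were 7.44, and the 95% interval of the difference ran from 0.868-fold to 1.15-fold (limma adjusted p = 1). Cdkn1b was the one member with a further probe set. That probe set was dim, with signals of 5.13, 4.39 and 4.34 in wild-type cells and 4.30 in both Dicer-deficient cultures, and wild-type array 1 alone stood above the rest.

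**Figure D2:**
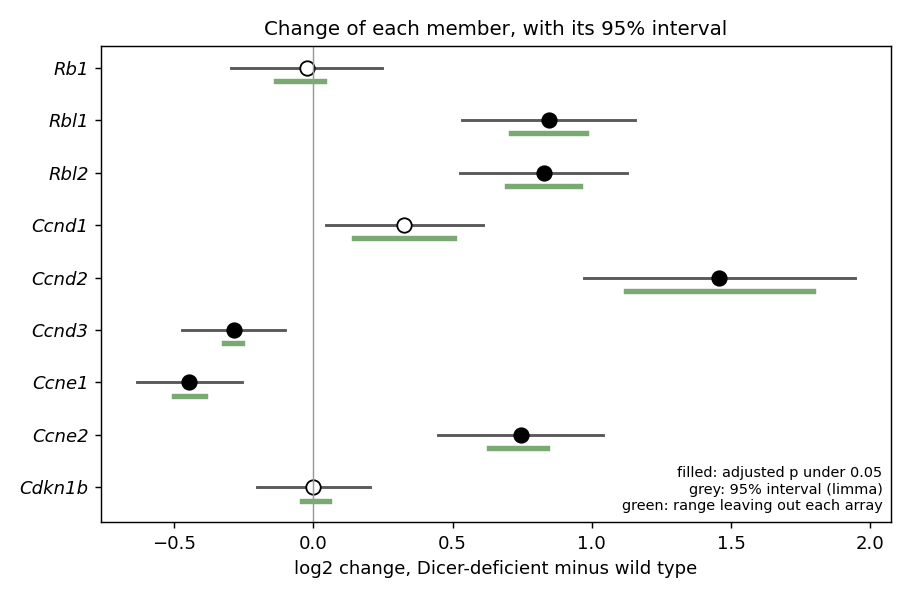
The horizontal axis is the log2 change of each gene, Dicer-deficient minus wild type, with its limma 95% interval in grey, a filled point where the gene was called, and in green the range of changes as each array is left out. The 4 filled points at the right are Ccnd2, Rbl1, Rbl2 and Ccne2, and the 2 at the left are Ccne1 and Ccnd3; the green ranges of these 6 stay on 1 side of 0.

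Because the members of a family can stand in for one another, the ratio between related transcripts is described within each array, relative to its wild-type mean, since signals of different probe sets do not share a scale. The 7 ratios were chosen after the members' values were seen and restate the differences given above as differences between pairs. An exact permutation of the arrays gave p = 0.1 for every pair but Rbl2 over Rbl1 (0.7). The 10 splits of 3 against 2 arrays allow no lower p than 0.1, so this test cannot decide, and the ratios are only described. The log2 ratio of Ccnd2 over Ccnd3 was 1.43 and 2.06 above the wild-type mean in the Dicer-deficient cultures, while the wild-type arrays lay between -0.32 and 0.30. The ratio of Ccne2 over Ccne1 was 1.15 and 1.23 above it, against -0.28 to 0.18 on the wild-type arrays. The mean shifts of these 2 log2 ratios were 1.75 and 1.19.

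The log2 ratios of Rbl1 and of Rbl2 over Rb1 were shifted by 0.87 and 0.85, and those of Ccnd2 over Ccnd1 and of Ccnd1 over Ccnd3 by 1.13 and 0.61. The ratio of Rbl2 over Rbl1 stayed within the wild-type range, with -0.02 and -0.01 in the Dicer-deficient cultures and -0.15 to 0.14 on the wild-type arrays.

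**Figure D3:**
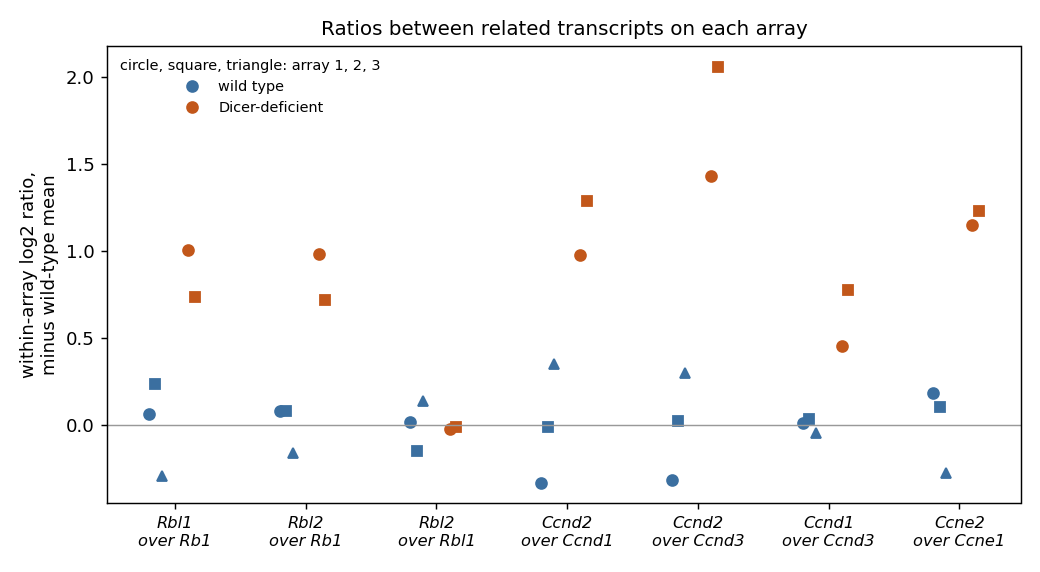
The vertical axis is the log2 ratio of 2 related transcripts on the same array, minus its wild-type mean, for 7 pairs; blue points are wild-type and orange points Dicer-deficient arrays. The orange points sit above all blue points for 6 pairs and among them for Rbl2 over Rbl1.

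Of the kinases that these cyclins activate, Cdk6 alone passed the test. Of 8 genes of the G1 kinases and their activators, 1 rose and 0 fell in limma (2 and 1 at an unadjusted p under 0.05), with a median log2 change of -0.05. Cdk6, the partner of D-type cyclins, read 8.40, 8.50 and 8.33 in wild-type cells and 9.19 and 9.12 in Dicer-deficient cells (log2 change 0.75, SE 0.0847, limma adjusted p = 0.00118). Its call was kept without each array in turn. Cdk4, the other cyclin D partner, had a change of 0.22 (adjusted p = 0.106), and Cdk2, the partner of cyclin E, -0.30 (adjusted p = 0.0889). Under other processing, Cdk4 was called with quantile normalization (limma adjusted p = 0.021) and with an intensity trend (0.0236), and Cdk2 with array weights (0.038). Of the 5 measured inhibitors besides Cdkn1b, limma called 0 (1 at an unadjusted p under 0.05), and Cdkn2b had the largest change, 0.32 (adjusted p = 0.0622). Cdkn1a was read by no probe set with its symbol alone.

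Genes that control the turnover of G1 cyclins and p27 moved in both directions, with 4 of 13 higher and 2 lower. Skp2, the F-box protein that recognises p27, had signals of 8.49, 8.42 and 8.22 in wild-type cells and 9.16 and 9.27 in Dicer-deficient cells (log2 change 0.84, limma adjusted p = 0.00157, and 0.0571 without Dicer-deficient array 2). Gsk3b, a kinase that marks cyclins D and E for destruction, rose by 0.81 (adjusted p = 0.00194, and 0.0653 without Dicer-deficient array 1). Cks1b, which helps Skp2 bind p27, fell by 0.43 on the log2 scale and Rbx1, a subunit of cullin ligases, by 0.44. Cul3, a cullin that acts on cyclin E, and Fbxo31, an F-box protein, rose by 0.34 and 0.33. Cks1b and Fbxo31 lost their call without any one of the 5 arrays. Rbx1 lost it without every array but wild-type array 3, and Cul3 without every array but wild-type array 1; averaging each gene's probe sets also ended the calls of Fbxo31 (adjusted p = 0.163) and Rbx1 (0.1). Fbxw7, the F-box protein that recognises cyclin E, had a change of 0.08 (adjusted p = 0.651).

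Of the 10 measured genes of the E2F and DP families, only some of which encode factors that pocket proteins bind, 1 rose and 0 fell in limma (1 and 3 at an unadjusted p under 0.05). The gene that rose was E2f6, a repressor that does not bind pocket proteins, with a change of 0.48 (limma adjusted p = 0.00656, and 0.0725 without Dicer-deficient array 2). E2f4, the main partner of p130, had -0.12 (adjusted p = 0.546) and E2f1 -0.02 (adjusted p = 0.929). Of 8 genes of the MuvB core and its partners, 2 rose and 2 fell. Lin37, a MuvB subunit needed for repression by DREAM, went from 7.17, 7.25 and 7.26 to 7.98 and 7.86 (log2 change 0.69, adjusted p = 0.00136). Mybl2, which binds MuvB in the activating complex of cycling cells, went from 10.84, 10.87 and 10.74 to 10.21 and 10.16 (log2 change -0.63, adjusted p = 0.00192). Both calls were kept without each array in turn. The MuvB subunits Lin54 and Rbbp4 had changes of 0.33 and -0.28 and were called with adjusted p of 0.0303 and 0.0409. Lin54 kept its call only without wild-type array 1, and Rbbp4 only without wild-type array 3; quantile normalization and median centring also ended the call of Rbbp4 (0.0756 and 0.0593).

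Of the 6 measured chromatin partners of the pocket proteins, Arid4a alone was called, with a rise of 0.55 (limma adjusted p = 0.00456). Its change was 0.47 without Dicer-deficient array 1, and the call was then lost. At an unadjusted p under 0.05, 4 of these partners were higher and 0 lower, against 2719 and 2826 of all 19938 genes. The median log2 change of the partners was 0.22. Hdac2 had the next largest change, 0.31 (adjusted p = 0.0673). Of 8 FOXO and MYC family genes, 3 rose and 2 fell. Foxo1, of a family known to induce Cdkn1b and Rbl2, rose by 0.72 (adjusted p = 0.0042), and its relative Foxo3 had -0.41 (0.0407). Mycn, the main MYC gene beside Myc in ES cells, rose by 0.52, Max, the partner of MYC proteins, rose by 0.47, and Mycl fell by 0.60 on the log2 scale. Mycl kept its call without each array in turn. Foxo1 and Mycn lost theirs without either Dicer-deficient array, Max also without wild-type array 2, and Foxo3 without every array but wild-type array 3. Myc had a change of 0.11, with Dicer-deficient signals of 6.17 and 7.15 on either side of the wild-type range, 6.26 to 6.78.

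The genes expressed around DNA synthesis and mitosis serve here as markers of the phases the cultures held. In bulk RNA a change in the share of cells in a phase and a change of transcript per cell cannot be told apart, which touches every member's result. Of 23 measured genes of the G1 to S transition, 1 rose and 5 fell in limma (1 and 8 at an unadjusted p under 0.05), with a median change of -0.15. The origin licensing gene Orc1 fell by 0.73 on the log2 scale, from 8.02, 8.0 and 7.80 to 7.15 and 7.28 (limma adjusted p = 0.00243, or 0.0675 with Dicer-deficient array 1 left out). The others that fell were Cdc6, Mcm4, Mcm6 and Uhrf1, with changes of -0.36 to -0.46, and each of these lost its call without either Dicer-deficient array. Mcm4 and Uhrf1 lost it without wild-type array 1 or 2 as well, and Cdc6 without wild-type array 2. Rrm1, the large subunit of ribonucleotide reductase, rose by 0.55 and kept its call without each array in turn.

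Of 21 measured genes of G2 and mitosis, 0 rose and 5 fell in limma (1 and 8 at an unadjusted p under 0.05), with a median of -0.17. The genes were Birc5, Hmmr, Ccnf, Top2a and Nusap1, with changes of -0.68 to -0.34, and Birc5, the survivin subunit of the chromosomal passenger complex, changed most (adjusted p = 0.00403, with 0.0705 and 0.0878 without Dicer-deficient array 1 and array 2). Hmmr, Ccnf and Top2a also lost their call without either Dicer-deficient array, Hmmr and Ccnf without wild-type array 2, and Nusap1 without any one array. Averaging its probe sets ended the call of Top2a (adjusted p = 0.139). The median signal over the G2 and mitosis genes was 9.15 to 9.41 on the wild-type arrays and 9.15 and 9.34 on the Dicer-deficient arrays, which overlapped. Over the G1 to S genes it was 9.51 to 9.72 against 9.50 and 9.54. Over the 102 genes of these 9 lists, 28.4% were called, against 17.1% of all genes. These shares were not matched for signal, and the G1 to S and G2 and mitosis lists had medians well above the array medians of 5.39 to 5.45.

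**Figure D4:**
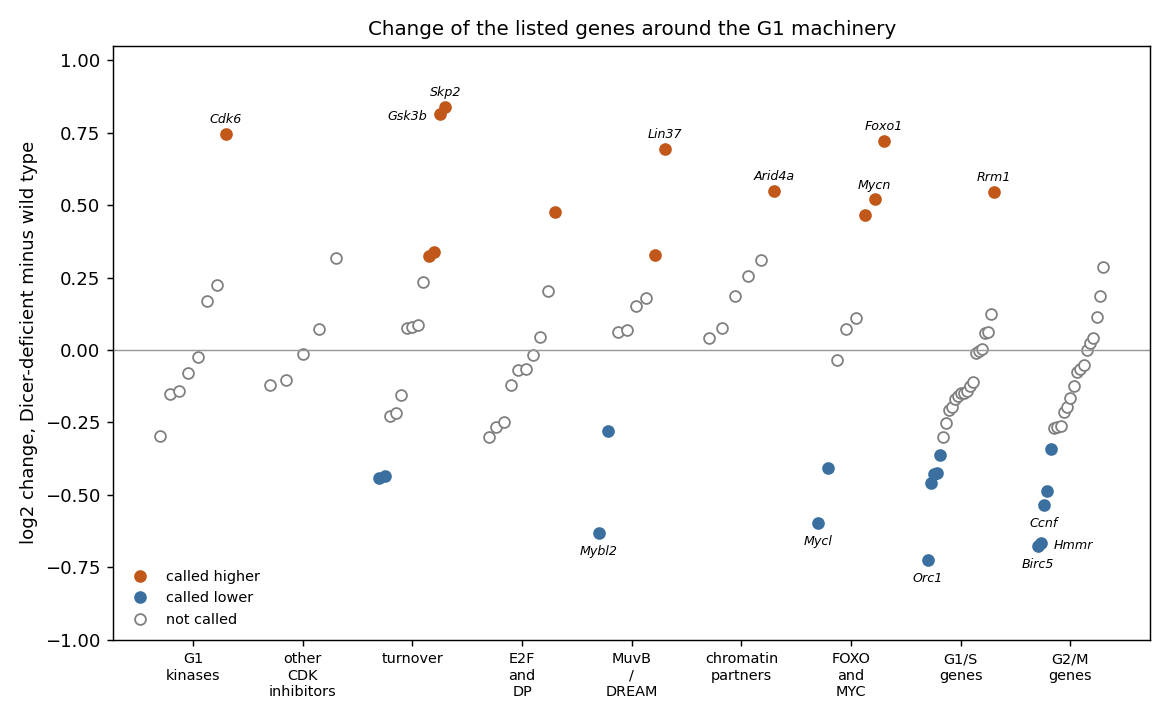
The vertical axis is the log2 change of each listed gene, Dicer-deficient minus wild type, in 9 lists along the horizontal axis, with called genes filled (orange higher, blue lower) and those past 0.5 named. Cdk6, Skp2, Gsk3b, Lin37 and Foxo1 stand highest and Orc1, Birc5, Hmmr and Mybl2 lowest. Most genes are open points in every list except the MuvB / DREAM list and the FOXO and MYC list.

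The called members were set beside the genes with the most similar profiles over the 5 arrays, by the root mean square distance between profiles centred on their means. Genes with provisional, microRNA or small nucleolar RNA names were passed over. The nearest to Rbl1 were Tmem106a, Rps6ka5 and Ei24, at distances of 0.0361 to 0.0518 log2 units. The nearest to Rbl2 were Pink1, Rbms2 and Rbm20, at 0.0316 to 0.0653, and the nearest to Ccnd2 were Gna14, Slc35f5 and Fras1, at 0.116 to 0.152. Ccne2 lay nearest to Dcaf10, Vgll4 and Wdr1, Ccne1 to Get1, Zfp398 and Mmp17, and Ccnd3 to Mrpl39, Nefh and Cd2bp2. Such likeness over 5 arrays mainly repeats the size of the difference between the groups.

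The members lie on 7 chromosomes, and the genes beside them in gene order were read in the same fit. Rbl2 lies on chromosome 8 beside Chd9, which rose by 0.51 (limma adjusted p = 0.00708), and Aktip, at -0.25 (0.0875). The 20 measured genes nearest to Rbl2, 10 on each side, had a median change of 0.03, and those around Rbl1, Ccnd2, Ccne1 and Ccne2 had medians between 0.00 and 0.04. Ccnd3 lies beside Taf8, which had -0.78 (limma adjusted p = 0.00157), and 4 of its 20 neighbours fell and 0 rose in limma (1 at an unadjusted p under 0.05). Of the 20 around Ccne1, 0 rose and 5 fell, and of the 20 around Cdkn1b, 4 rose and 0 fell. Around Rbl1, 1 rose and 4 fell, around Ccnd2 2 rose and 2 fell, and around each of Rbl2 and Ccne2 1 rose and 1 fell. Ccnd1 had only 14 such neighbours, of which 1 rose and 0 fell. Rb1, on chromosome 14, had the most called neighbours, with 8 of 20 lower and 2 higher, while Rb1 itself was not called. Over all genes, 8.6% were called lower and 8.48% higher.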

How the data were processed

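The authors deposited 1 table of normalized log2 signals for 35556 probe sets, rounded to 2 decimals. Their background correction, summarisation, normalization and log base are not given in the sources used here. Log2 was read from the values (2.38 to 14.66, with near-equal array medians). Biotin-labelled cRNA had been made from total RNA, per the labels' protocols. GEO's platform annotation, which can be old, gave 1 symbol to 21789 probe sets, several to 1621 and none to 12146. Gene order came from RefSeq's GRCm38.p6 table, in which 19856 of 19938 genes were found.

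Dicer-deficient was compared with wild type by limma (lmFit, eBayes; 3 residual and 4.54 prior degrees of freedom), with Benjamini-Hochberg adjustment over 19938 genes. SDs are between arrays, SEs are moderated, and intervals are 95% and unadjusted. The number of arrays limits the precision. The members and lists were chosen with earlier results of these data known. Named are all members, the called genes and the largest changes in each list, and the 3 nearest profiles after the names passed over. The paralogue ratios, and other list genes named for their role (Cdk4, Fbxw7, E2f1, E2f4, Myc), were chosen after values were seen. Alternatives were each array left out, a replicate block, array weights, quantile normalization, median centring, moderation with an intensity trend or made robust, dim genes left out, probe set averages and all probe sets. No value column was without a sample. Tools were R 4.3.3, limma 3.58.1, Python 3.11.15, pandas 2.3.3, numpy 2.4.6 and matplotlib 3.10.9.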

Additional observations from a re-analysis of the deposited data

How the results depend on the processing

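The 6 called members kept their direction in all 84 alternative fits and their side of the threshold in 66. The number of members called, 6, was 5 or 6 under the alternatives other than the replicate block and leaving out an array, and 0 to 6 as each array was left out. The replicate numbers in the titles are shared by 2 pairs of arrays, and the labels do not say that they pair them. The deviations of same-numbered arrays from their group means correlated at 0.0492 and 0.00528 over genes. With only 2 Dicer-deficient arrays, their deviations mirror each other, so these correlations cannot decide whether the arrays were paired. With the replicate block, 3 members, 894 of all genes and 6 of the context genes were called, against 6, 3404 and 29 without it. The members not called with the block were Ccnd3 (limma adjusted p = 0.104), Ccne1 (0.0698) and Ccne2 (0.0627). Of the context genes only Skp2, Gsk3b, Mybl2, Mycl, Orc1 and Birc5 were called with it, while Cdk6 (0.0508), Lin37 (0.0534) and Rrm1 (0.061) were not, nor were the other called genes of the lists. As each array was left out, 973 to 2956 of all genes and 7 to 24 of the context genes were called. Rb1 turned from -0.02 to 0.084 with array weights and 0.025 with the replicate block, and lay between -0.135 and 0.04 without single arrays. Of the 29 called context genes, 5 kept their call without each array in turn, and 0 changed direction in any alternative. Averaging the probe sets of Cdkn1b gave -0.16 (limma adjusted p = 0.49). Testing all probe sets gave an adjusted p of 0.0942 for Ccnd3 and called 20 of the context genes, and averaging probe sets called 26. Signal over background was not analysed here.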
